A study of Mus musculus with 6 samples.

Results

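The genes examined were 10 genes of polyamine synthesis, breakdown and control (Amd1, Amd2, Odc1, Srm, Sms, Sat1, Smox, Azin1, Oaz1 and Oaz2), taken by name from a table of 54393 genes measured in mouse hippocampus. Amd2 was selected on its measured difference between the genotypes in these same libraries, so that difference is described here without a test. The other 9 genes were chosen by their role in the pathway around it. Messenger RNA came from untreated C57BL/6 mice aged 6 to 8 weeks, either wild type or miR-301a-/- (called knockout here), with 3 libraries of each genotype. The labels give neither a substrain nor how the knockout allele was made, and they do not say whether the wild-type mice were littermates. Libraries are named by the code in their titles, which are 1-1, 2-1 and 2-2 for wild type and 1-1, 2-2 and 3-1 for knockout. Whether the libraries are from different mice is not stated, so the p-values measure only the spread between libraries, which may be partly technical.

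Polyamines (putrescine, spermidine and spermine) are small positively charged molecules that bind nucleic acids and are needed for growth and translation. Ornithine decarboxylase, the product of Odc1, makes putrescine. S-adenosylmethionine decarboxylase, the product of Amd1, makes the aminopropyl donor that Srm and Sms use to build spermidine and spermine. Sat1 and Smox run the pathway backwards. The antizymes Oaz1 and Oaz2 bind ornithine decarboxylase and send it to the proteasome, and the antizyme inhibitor Azin1 frees it again. In the brain, spermine is known for blocking some glutamate receptor and potassium channels from inside the cell.

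Amd2 and Amd1 were nearly the same transcript at different places on chromosome 10. In GENCODE M21 on GRCm38, Amd1 (ENSMUSG00000075232.5, chromosome 10, 40287458 to 40302186, minus strand) has 8 exons in its main transcript. Amd2 (ENSMUSG00000063953.3, chromosome 10, 35708675 to 35711892, minus strand) lies 4.58 Mb away and has 1 exon, with no intron. The Amd2 transcript ends in a run of 17 A, against 1 A at the end of Amd1. Over 3201 aligned bases the transcripts differed at 11 positions, an identity of 99.7%. Of these substitutions 1 lay in the 5' UTR, 1 in the coding sequence and 9 in the 3' UTR. The last of the 9, at position 3204 of Amd2, falls in its final run of A, where the ends align with gaps. Beside the substitutions, some bases occur in only 1 of the transcripts. They lie in the 5' UTR of Amd2 (transcript positions 1, 167 and 196 to 198) and at the 3' end of both transcripts. Both coding sequences are 334 codons long without the stop, and that of Amd2 has no stop codon inside it. The single coding substitution is G796C (the base of Amd1, its position counted from 1 at the start codon, then the base of Amd2), and it changes the amino acid. The stretch around it, coding bases 766 to 828 in GENCODE M21 with the differing base in capitals, shows how little separates reads of the genes:
Amd1: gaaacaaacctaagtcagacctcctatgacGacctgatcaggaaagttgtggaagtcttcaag
Amd2: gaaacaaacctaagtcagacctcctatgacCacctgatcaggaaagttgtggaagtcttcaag

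**Figure D1:**
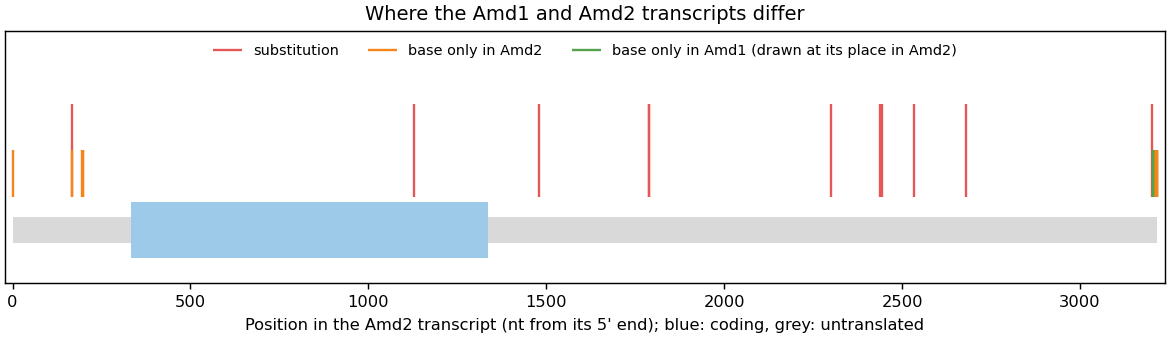
Positions at which the annotated Amd1 and Amd2 transcripts differ, drawn along the Amd2 transcript in nucleotides from its 5' end, with the coding sequence in blue. Tall red lines are the 11 substitutions, and shorter lines are bases found only in Amd2 (orange) or only in Amd1 (green). The longest stretch with no difference spans 930 nt (positions 199 to 1128).

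This likeness bears on how the values can be read. Of all 100-nt windows of the Amd2 transcript, 72.9% occur letter for letter in Amd1, as do 85.7% of 50-nt windows and 61.6% of 150-nt windows. The read length, and how the authors placed reads that match both genes, are not given in the sources used here. A value of Amd2 therefore rests on how such reads were shared out, as well as on reads that span a difference.

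The sequences before the start sites shared no such run. The RefSeq promoter windows on GRCm38.p6 hold 250 bases before and 50 bases after each start. In the 250 bases before the start, the longest run that Amd1 and Amd2 share is 7 nt. Counting the 50 transcribed bases as well, it is 48 nt. GC content before the start was 64.4% for Amd1 and 37.6% for Amd2, against a median of 52.4% over 32851 promoter windows, of which 8.47% had no more GC than Amd2. The last 90 bases before each start are shown because the shared transcript and the unshared upstream sequence meet there. They span chr10:40302189-40302278 and chr10:35711892-35711981, both on the minus strand, with the TATA-like motif TATATAA in capitals:
Amd1: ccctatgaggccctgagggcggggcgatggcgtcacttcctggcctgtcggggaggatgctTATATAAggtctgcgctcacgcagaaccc
Amd2: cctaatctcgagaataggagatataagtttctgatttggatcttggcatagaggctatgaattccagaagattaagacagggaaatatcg

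TATATAA, searched on both strands, begins 29 bases before the Amd1 start and is in 3.24% of all promoter windows. It was not among the letters of the Amd2 window. The GC-rich motif GGGCGG was in the Amd1 window but not in the Amd2 window, and in 35.7% of all windows. Among the other members with a RefSeq promoter, GGGCGG was in the windows of Odc1, Smox, Sat1 and Oaz2 and in 1 of the windows of Sms.

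Sites for the deleted microRNA were looked for next. The mature miR-301a-3p (RefSeq on GRCm38.p6, chromosome 11, 87113054 to 87113076, plus strand) is shown with its seed, bases 2 to 8, in capitals:
miR-301a-3p: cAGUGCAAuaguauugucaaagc

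The heptamer that pairs with this seed, TTGCACT, was in the longest annotated 3' UTR of 0 of the 10 genes, Amd2 included, against 12.2% of 12744 tested genes with a 3' UTR. The shorter hexamer TGCACT, found in 35.3% of those genes, occurred 2 times in Sms and 1 time in Azin1. The 3' UTRs of the 10 genes ran from 315 nt (Srm) to 2937 nt (Azin1), and the shares are not matched for length. With only 10 genes, the 0 for the heptamer does not show a lack of sites against the 12.2%.

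The libraries held 24101 to 25121 genes above 0, and mitochondrial transcripts made up 16.1% to 22.8% of the summed values. The values are FPKM-like, that is, scaled by gene length and library depth. Low values fell in steps that put the depths near 16.5 to 27.1 M reads. Mir301 itself was listed at 0 in all 6 libraries and does not check the genotype labels. All 10 hippocampal neuron markers, such as Prox1 and Neurod6, were above 0 in every library. Their summed values ran from 400.6 to 514.2 in wild type and from 410.2 to 489.9 in knockout. Mpped1 ran from 78.1 to 88.3 in wild type and from 57.0 to 75.0 in knockout. Zbtb20 ran from 19.6 to 22.9 and from 25.2 to 29.3. In the other neuron markers the groups overlapped, and 11.4% of all tested genes had no overlap. Choroid plexus markers summed to 6.90 to 8.43 in wild type and to 19.8, 16.7 and 8.68 in knockout 1-1, 2-2 and 3-1, with Otx2 and Kcnj13 at 0 in some libraries. Most of that difference was in Ttr, at 1.68, 1.41 and 2.57 in wild type and at 12.2, 10.7 and 2.74 in knockout. Without Ttr the other 5 markers summed to 5.22, 5.67 and 5.87 in wild type and to 7.62, 6.04 and 5.95 in knockout. Folr1, Kl, Kcnj13 and Otx2 overlapped between the groups. Clic6 did not, at 0.0405 to 0.142 in wild type and 0.146 to 0.265 in knockout. Red blood cell markers summed to 158.9 to 294.6 in wild type and reached 441.4 in knockout 1-1, against 214.9 and 228.3 in knockout 2-2 and 3-1. In bulk tissue, fewer cells of a type and less RNA per cell cannot be told apart.

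Amd2 was close to absent in wild type and clearly present in knockout. Its values were 0.143, 0.443 and 0.245 in wild type 1-1, 2-1 and 2-2 and 8.31, 8.28 and 8.86 in knockout 1-1, 2-2 and 3-1. The lowest knockout library stood far above the highest wild-type library, and the knockout libraries lay close together. The means were 0.277 ± 0.153 (SD, n = 3) and 8.48 ± 0.327 (SD, n = 3), a ratio of 30.6. On the log2(value + 1) scale, which understates the change of a low gene, the difference was 2.90. In the authors' deposited table the log2 fold change of Amd2 was 4.99. The read steps put the wild-type values at an estimated 11.5, 25.8 and 14.4 reads and the knockout values at an estimated 653.5, 405.0 and 503.9 reads. These estimates carry no counting interval, since exact counts were not recovered. Amd2 passed the filter on low values only through the knockout libraries.

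Amd1 did not mirror this. It was at 44.1, 46.7 and 48.9 in wild type 1-1, 2-1 and 2-2 and at 47.1, 42.6 and 49.0 in knockout 1-1, 2-2 and 3-1. The groups overlapped, with a limma log2 fold change of −0.01 (95% interval −0.18 to 0.16, adjusted p = 0.987). Amd2 thus made up 0.323% to 0.941% of the summed Amd1 and Amd2 value in wild type and 15.0% to 16.3% in knockout. The sum was 44.3, 47.1 and 49.1 in wild type and 55.4, 50.9 and 57.8 in knockout, and its mean was 16.9% higher in knockout. Because the sum contains Amd2, it is given with no test.

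**Figure D2:**
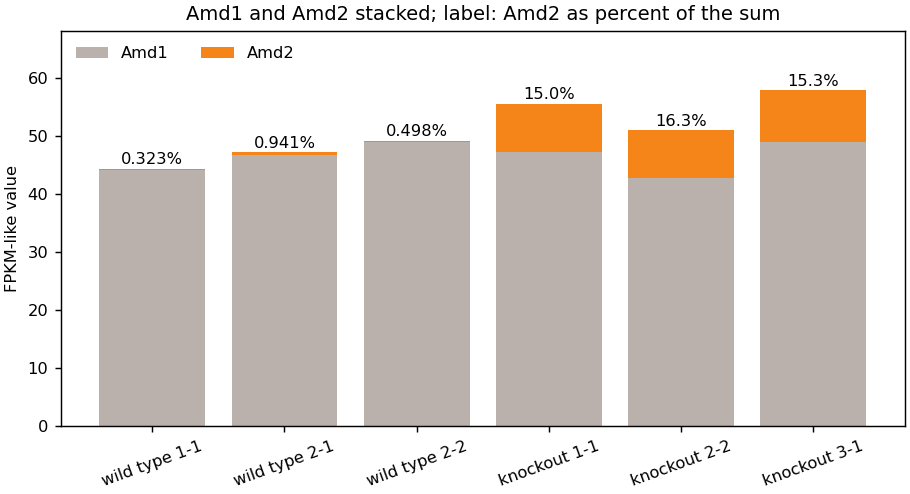
FPKM-like values of Amd1 (grey) and Amd2 (orange) stacked for each of the 6 libraries, with Amd2 as a percentage of the sum above each bar. Amd2 is 0.323% to 0.941% of the sum in wild type and 15.0% to 16.3% in knockout, while the Amd1 part is of like height in both genotypes.

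The other annotated copies of the gene did not carry comparable values. Amd-ps1, Amd-ps4, Amd-ps5 and Amd-ps6 are processed pseudogenes, and each was listed at 0 in all 6 libraries. Amd-ps3, on chromosome 18, was at 0.138 in wild type 2-1, at 0.102 and 0.497 in knockout 1-1 and 2-2, and at 0 in the remaining 3 libraries. The annotated pseudogenes match the Amd1 transcript at 94.6% to 99.9% of aligned bases, and 89.0% of the 100-nt windows of Amd-ps3 occur in Amd1 letter for letter.

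Of the 9 genes other than Amd2, 0 passed the limma test over all 14708 genes (adjusted p under 0.05), where 0.109% of tested genes did (0.0544% higher and 0.0544% lower in knockout), and 0 had an unadjusted p under 0.05, where 5.72% did. In the authors' deposited table all 9 had a p-value and an adjusted p of 1, as 64.9% of genes with a p-value there had a p-value of exactly 1, and 0.0259% of those genes had an adjusted p under 0.05. Of the 9 genes, 4 had a fold change above 0 and 5 below, with a median of −0.01 on the log2 scale, against −0.00383 over all tested genes. The size of the fold change had a median of 0.06, against 0.09 over all tested genes. The tested genes include many at lower levels than these 9, so the medians do not show that the 9 vary less than genes of like level. A p above the threshold does not show equal levels, and the intervals below give the sizes these libraries allow.

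**Figure D3:**
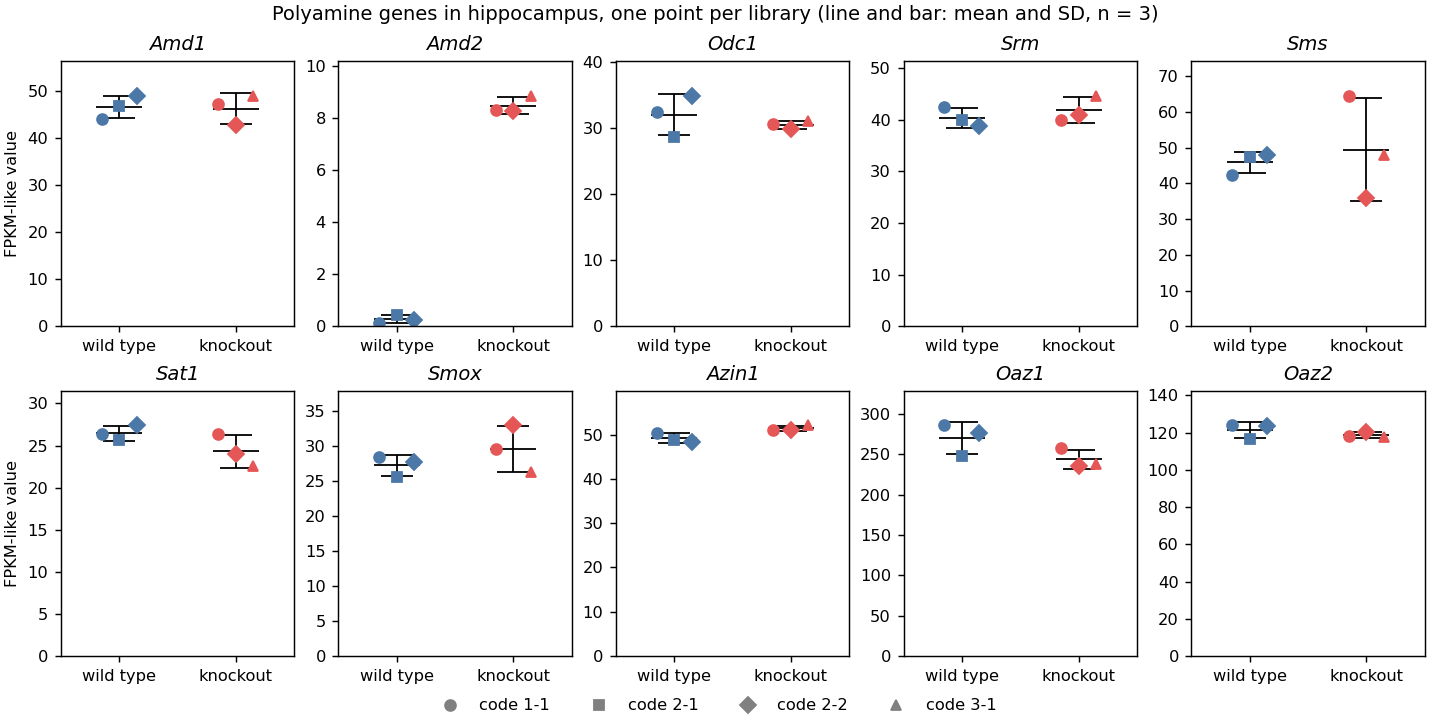
FPKM-like value of each of the 10 genes in each library, with blue points for wild type, red points for knockout, and the mean and SD (n = 3) in black. Amd2 separates the genotypes from 0.443 or less to 8.28 or more, Sms spreads most among the knockout libraries (35.9 to 64.5), and in 8 of the 10 genes the groups overlap.

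In wild type the levels, compared per length, ran from the antizymes down. Oaz1 was highest with a mean of 270.0, then Oaz2 at 121.3. Azin1 (49.2), Amd1 (46.6), Sms (45.9) and Srm (40.4) followed, and each of these overlapped with the next in its range over libraries. Odc1 (32.1) stood below Srm and above Smox (27.2) with no overlap, and Smox and Sat1 (26.5) overlapped. Amd2 was lowest.

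Of the synthesis genes other than the Amd pair, Odc1 and Srm overlapped between genotypes. Odc1 was at 32.5, 28.8 and 35.0 in wild type 1-1, 2-1 and 2-2 and at 30.7, 29.9 and 31.1 in knockout 1-1, 2-2 and 3-1. All 3 knockout values lay inside the wild-type range (limma log2 fold change −0.06, 95% interval −0.25 to 0.13, adjusted p = 0.949). Srm, spermidine synthase, was at 42.5, 39.9 and 38.8 in wild type and at 40.0, 41.0 and 44.7 in knockout. Knockout 3-1 was above every wild-type library and the other knockout values were inside the wild-type range (limma log2 fold change 0.05, 95% interval −0.11 to 0.21, adjusted p = 0.95).

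Sms, the X-linked gene for spermine synthase, varied most. It was at 42.5, 47.3 and 47.8 in wild type 1-1, 2-1 and 2-2 and at 64.5, 35.9 and 48.0 in knockout 1-1, 2-2 and 3-1. Knockout 1-1 was the highest of all libraries and knockout 2-2 the lowest, so the knockout range enclosed the wild-type range. The limma log2 fold change was 0.07 (95% interval −0.39 to 0.53, adjusted p = 0.976), and it was −0.14 without knockout 1-1 and 0.28 without knockout 2-2. Knockout 1-1 also held the highest sums of choroid plexus markers, with or without Ttr, and of red blood cell markers given above. Its sums of astrocyte (814.9) and microglia (212.6) markers, 6 genes each, were also the highest. Those of neuron, oligodendrocyte and endothelial cell markers were not. Single markers did not all follow the sums. The astrocyte marker Gfap was at 153.4 in knockout 1-1, against 154.8, 176.6 and 176.2 in wild type. The microglia marker Csf1r was at 41.9 there, against 43.2 in knockout 3-1. Between the genotypes, Gfap (lower in knockout), Gja1 and P2ry12 (both higher) did not overlap, as 11.4% of all tested genes did not. Knockout 2-2 held the lowest sums of microglia (146.5) and oligodendrocyte (2108.4) markers. What part any of these cell types had in the value of Sms was not tested. A processed pseudogene, Sms-ps on the X chromosome, is identical to Sms over all of its 1101 bases. It was at 4.14, 3.10 and 1.64 in wild type and at 8.02, 10.2 and 0 in knockout 1-1, 2-2 and 3-1. Their sum was 46.6, 50.4 and 49.5 in wild type and 72.6, 46.1 and 48.0 in knockout. Knockout 1-1 was again the highest library and knockout 2-2 the lowest, and the SD (n = 3 each) was 1.98 in wild type and 14.8 in knockout.

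The genes of polyamine breakdown overlapped between genotypes. Sat1, the X-linked gene for the enzyme that acetylates spermidine and spermine for export or oxidation, was at 26.3, 25.7 and 27.4 in wild type 1-1, 2-1 and 2-2. In knockout 1-1, 2-2 and 3-1 it was at 26.4, 24.1 and 22.5, and only knockout 1-1 lay in the wild-type range (limma log2 fold change −0.12, 95% interval −0.29 to 0.06, adjusted p = 0.893). Smox, the oxidase that turns spermine back into spermidine, was at 28.4, 25.6 and 27.7 in wild type and at 29.5, 32.9 and 26.3 in knockout. Knockout 1-1 and 2-2 were above every wild-type library and knockout 3-1 was not (limma log2 fold change 0.11, 95% interval −0.11 to 0.33, adjusted p = 0.918).

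Among the genes that control ornithine decarboxylase, Oaz1 had the largest difference in size of the 9 genes. It was at 285.8, 247.8 and 276.5 in wild type 1-1, 2-1 and 2-2 and at 257.7, 235.9 and 238.2 in knockout 1-1, 2-2 and 3-1. The knockout mean differed from the wild-type mean by −9.66%, but knockout 1-1 lay above wild type 2-1 (limma log2 fold change −0.14, 95% interval −0.32 to 0.03, adjusted p = 0.893). Oaz1 has a close copy, Oaz1-ps on chromosome 17 (17345456 to 17346140), whose aligned bases are 99.9% identical to Oaz1. It was listed at 88.4, 86.9 and 99.4 in wild type and at 81.8, 91.4 and 84.9 in knockout, and reads of the pair cannot be told apart where their sequences are the same. The values of both summed to 361.6 ± 23.4 for wild type against 330.0 ± 8.48 for knockout (SD, n = 3 each; limma log2 fold change −0.13, adjusted p = 0.892).

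Oaz2 was at 123.9, 116.4 and 123.7 in wild type and at 118.0, 120.4 and 117.8 in knockout, all inside the wild-type range (limma log2 fold change −0.03, 95% interval −0.15 to 0.09, adjusted p = 0.955). Its processed pseudogene Oaz2-ps was at 0 in 4 libraries and at 0.129 and 0.657 in knockout 1-1 and 2-2. Azin1, the antizyme inhibitor, was at 50.4, 48.8 and 48.3 in wild type and at 51.1, 50.9 and 52.1 in knockout. Every knockout library was above every wild-type library, but by 4.47% between the means (limma log2 fold change 0.06, 95% interval −0.06 to 0.18, adjusted p = 0.918). Azin1 was the only one of the 9 genes whose groups did not overlap, and 11.4% of all tested genes did the same. The ratio of Odc1 to the summed antizymes Oaz1 and Oaz2 was 0.0793, 0.0790 and 0.0874 in wild type and 0.0817, 0.0840 and 0.0873 in knockout, with overlapping groups.

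The wider pathway was described from 45 further genes in 5 lists, of which 32 passed the filter on low values. Of these 32, limma called 0 over all genes, where 0.109% of tested genes were called, and 3 had an unadjusted p under 0.05, where 5.72% of tested genes did. Fold changes were above 0 in 16 and below 0 in 16, with a median of −0.00206. Groups did not overlap in 6 genes, 1 higher and 5 lower in knockout, where 5.70% and 5.67% of all tested genes did so in each direction.

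The smallest p among them was that of Dhps, deoxyhypusine synthase, which uses spermidine to modify the translation factor eIF5A. Dhps was at 28.4, 31.4 and 29.98 in wild type 1-1, 2-1 and 2-2 and at 22.9, 21.7 and 22.6 in knockout 1-1, 2-2 and 3-1. The groups were well apart, with means of 29.9 ± 1.51 and 22.4 ± 0.610 (SD, n = 3 each), a ratio of 0.749. The limma log2 fold change was −0.40 (95% interval −0.55 to −0.25, unadjusted p = 0.000395), and after adjustment over all genes p was 0.194, so Dhps was not called. Over the alternative settings its limma adjusted p ran from 0.199 to 0.9998, the highest in a fit that blocks on the title codes. Its log2 fold change ran from −0.44 to −0.37. The other hypusination genes overlapped between groups. For Dohh, the hydroxylase of the next step, limma gave a log2 fold change of −0.07 (adjusted p = 0.926), and for Eif5a, the substrate, −0.05 (adjusted p = 0.95). Eif5a2, a related gene, was at 0.10 (limma adjusted p = 0.918).

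Arginine and ornithine supply had 9 tested genes of 12, with 4 fold changes above 0 and 5 below. Its highest genes were Oat, ornithine aminotransferase, Gatm, the first enzyme of creatine synthesis, and Ass1, argininosuccinate synthase. Oat was at 42.4 ± 0.201 in wild type and 38.9 ± 1.40 in knockout (SD, n = 3 each; limma log2 fold change −0.12, adjusted p = 0.876). Ass1 was at 16.4 ± 0.110 and 14.5 ± 0.595 (SD, n = 3 each; limma log2 fold change −0.16, adjusted p = 0.874), and Gatm at 36.7 ± 8.28 and 33.9 ± 6.36 (SD, n = 3 each). The groups of Oat and Ass1 did not overlap, nor did those of Azin2, a second antizyme inhibitor (15.2 ± 1.34 and 12.5 ± 0.816; SD, n = 3 each; limma adjusted p = 0.832), and Aldh18a1, which makes the proline and ornithine precursor (7.46 ± 0.318 and 8.98 ± 1.13; SD, n = 3 each; limma adjusted p = 0.878).

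The supply of S-adenosylmethionine and the salvage of methylthioadenosine, the by-product of both aminopropyl transfers, had 10 tested genes of 11, 5 on each side of 0, and Enoph1, an enzyme of the salvage, was the only one whose groups did not overlap (28.9 ± 0.229 and 26.5 ± 1.62; SD, n = 3 each; limma adjusted p = 0.893). Mat2a, the S-adenosylmethionine synthetase of tissues outside the liver, was at 64.7 ± 6.12 and 61.6 ± 1.89 (SD, n = 3 each; limma adjusted p = 0.937). Ahcyl1 was at 121.1 ± 1.92 and 126.0 ± 5.85, and Ahcyl2 at 60.3 ± 6.60 and 64.6 ± 1.42 (SD, n = 3 each). Of 12 transport genes 6 were tested, led by Slc3a2 (66.5 ± 1.27 and 67.9 ± 1.78), the lysosomal polyamine exporter Atp13a2 (44.2 ± 2.14 and 43.6 ± 1.89) and the related Atp13a3 (14.6 ± 1.36 and 16.9 ± 1.82; SD, n = 3 each throughout). The log2 fold change of Atp13a3 was 0.19 (limma adjusted p = 0.893). Of 6 other breakdown and antizyme genes, Sat2, Hdac10 and Paox were tested, with limma adjusted p of 0.994, 0.942 and 0.99.

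**Figure D4:**
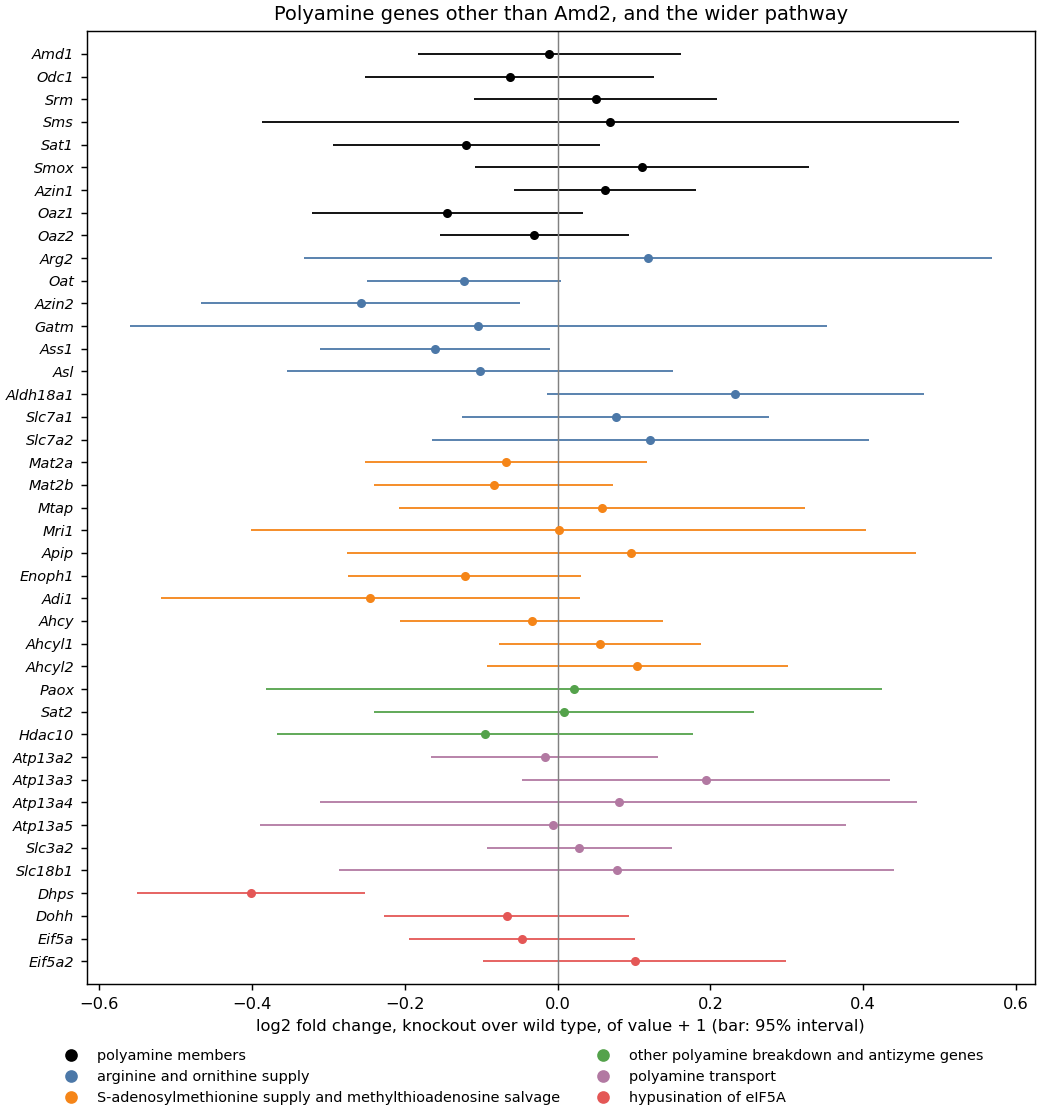
limma log2 fold changes of value + 1, knockout over wild type, with 95% intervals, for the 9 genes other than Amd2 (black) and the 32 tested genes of the wider lists (colours by list). The intervals of Dhps, Azin2 and Ass1 do not reach 0 before adjustment, and no gene shown passed after adjustment over all 14708 genes.

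No annotated neighbour close to Amd2 passed the filter on low values. Of 12 other genes of the table within 1 Mb, 7 were listed at 0 in all libraries, 5 had a value above 0 in at least 1 library, and 0 passed. The nearest tested genes were Hdac2, a histone deacetylase, and Marcks, a protein kinase C substrate, on one side (1262.7 and 1421.5 kb away), and Nt5dc1 and Tspyl4 on the other (1290.1 and 1407.4 kb). Hdac2 was at 45.2, 41.0 and 46.4 in wild type and at 40.0, 45.1 and 42.5 in knockout, and Tspyl4 at 164.8, 162.9 and 164.0 and at 168.5, 161.3 and 163.1. In both the groups overlapped. None of the 4 was called (limma adjusted p of 0.951, 0.919, 0.893 and 0.995 for Hdac2, Marcks, Nt5dc1 and Tspyl4).

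The tested genes most like Amd2 across the 6 libraries, by Pearson correlation of log2(value + 1), were Mthfd1l (r = 0.998), Mib1 (0.994), Gm27348 (0.992), Gm12928 (0.991) and Anapc10 (0.99). These are the 5 highest of all tested genes outside the 10, and any gene that separates the genotypes tightly scores high, so the values are a description only. Mthfd1l, a mitochondrial enzyme of folate metabolism, lies on the same chromosome (3973118 to 4167081) and was at 3.52, 3.54 and 3.54 in wild type and at 4.18, 4.14 and 4.18 in knockout. Mib1, a ubiquitin ligase of Notch signalling, was at 25.1, 26.5 and 25.6 and at 30.8, 31.0 and 31.6. Anapc10, a subunit of the anaphase-promoting complex, was at 2.18, 2.15 and 2.22 and at 3.18, 3.10 and 3.34. Gm27348 and Gm12928 were listed at 0 in all wild-type libraries, and at 7.40, 5.90 and 5.08 and at 3.06, 3.25 and 4.65 in knockout 1-1, 2-2 and 3-1. Both thus passed the filter on low values only through the knockout libraries. In all 5 genes every knockout library was above every wild-type library, as in 5.70% of all tested genes. The choice by likeness to Amd2 favours this outcome, so it is no separate result.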

How the data were processed

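Poly(A) RNA was sequenced from 6 hippocampus libraries. The authors deposited 1 table of FPKM-like values (scaled by gene length and depth; the unit is inferred from the values) with their own log2 fold change, p-value and adjusted p-value columns, whose test is not named, per the file headers. HISAT2 2.1.0, HTSeq, bcl2fastq and mm10 are named with no role, per the submitters' processing notes; the series' design text names other programs. Strand handling is not given.

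From the deposited values, log2(value + 1) was fitted with limma 3.58.1 in R 4.3.3 (genotype only, trend on mean level, two-sided, Benjamini-Hochberg over all tested genes) for 14708 genes, those that reached 1 in 3 or more libraries. On simulated data with 200 genes changed by 2 log2 units in each of 5 runs, the fit over 14708 genes recovered 93.0% to 96.5% for knockout against wild type, and up to 6.06% of its calls were false. Depth was estimated from low values of genes with 1 annotated transcript and more than 600 nt; 39.5% to 65.7% of values came out whole within 0.05 of a read, where 10.0% would if values were spread evenly. Sequences were compared with Biopython 1.88 under Python 3.11.15. All 54393 gene identifiers were in GENCODE M21. RefSeq promoters were found for 8 of the 10 genes (not Srm or Azin1).

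The members and lists were chosen with earlier results of these data known. Named genes were all members, their annotated pseudogenes, the 3 highest and any called gene of each list, the nearest tested neighbours and the 5 genes most like Amd2; Azin2, Aldh18a1, Enoph1 and Eif5a2 were added after their values were seen. Alternatives were another pseudocount, other floors, rescaling, no trend, a replicate block and leaving out each library.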

Additional observations from a re-analysis of the deposited data

How the results depend on the processing

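The 9 genes other than Amd2, with Dhps, were refitted under 13 alternatives each (130 limma fits). Of these 0 passed an adjusted p of 0.05, and the lowest adjusted p was 0.199, for Dhps. The sign changed in 5 of the fits, all of fold changes near 0 or resting on 1 library. Amd1 had a log2 fold change of 0.0150 with equal sums outside the mitochondrial genome, and from −0.0522 to 0.0454 with 1 library left out. Sms ran from −0.14 (without knockout 1-1) to 0.28. Srm was at −0.00506 with the replicate block. With Amd2 added to Amd1, a choice made after seeing the data, the log2 fold change was 0.22. The log2 difference of Amd2 was 4.59 with a pseudocount of 0.1 and 2.82 to 2.99 without 1 library.

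Over all genes, 8 higher and 8 lower calls became 2 and 2 with no floor, 4 and 3 with a floor of mean 5, and 7 and 5 with no trend. With 1 library left out they were 2 to 9 higher and 2 to 8 lower, with 2 and 2 without wild type 2-1, 3 and 3 without wild type 2-2, and 4 and 2 without knockout 2-2. Lower calls were 5 without wild type 1-1 and 2 without knockout 3-1. The replicate block on the title codes gave 0 and 0 by limma, with 611 genes at an unadjusted p under 0.05. Codes 2-1 and 3-1 occur in 1 library each, so this fit compares the genotypes only within codes 1-1 and 2-2. It leaves very little to estimate the spread from, so its lack of calls says little about the genes. Codes 1-1 and 2-2 occur in both genotypes, and the deviations of same-coded libraries correlated at −0.0986 and −0.0606. The labels do not say what the codes mean, and so few pairs cannot show whether same-coded libraries share anything. The cause of these shifts was not tested. Few reads lie behind Amd2 in wild type, an estimated 11.5 to 25.8 for each value. Whether some of these came from Amd1 was not tested.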
